A study of Mus musculus with 9 samples.

Results

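The 10 genes described here code for secreted signals that call white blood cells to a tissue or make them grow: the chemokines Ccl2, Ccl20, Cxcl1, Cxcl2, Cxcl5, Cxcl10 and Cxcl16, and the colony-stimulating factors Csf1, Csf2 and Csf3. They were taken by symbol from a table of 24493 gene rows, and all 10 were found in it. Expression was measured by RNA sequencing in 6620c1, a mouse pancreatic tumor cell line, in 3 samples each of day 0, day 2 and day 14 of a culture short of nutrients and oxygen. The cells stood in DMEM that held 2.5 mM glucose, serum of fetal calf at only 0.5%, and amino acids at 20% of their usual level, and no agent was added in any sample. The labels give this medium for all 9 samples, so also for day 0, and give no oxygen level and no earlier medium. The table's columns of all 9 samples carry the prefix WT, whose meaning the labels do not give. Samples of day 2 or day 14 kept in full medium are not among them, so the length of culture and the deprivation itself cannot be told apart. All samples are of 1 cell line, and whether the 3 samples of a day came from separate cultures is not stated, so p-values rest on the spread among them, which can be technical.

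Chemokines bind receptors on leukocytes and guide them along a gradient. Those with an ELR motif before the first cysteines, Cxcl1, Cxcl2 and Cxcl5 here, act on the receptor Cxcr2 of neutrophils. Ccl2 draws monocytes through Ccr2. Ccl20 draws cells with Ccr6, among them Th17 cells, B cells and some dendritic cells, while Cxcl10 and Cxcl16 draw T cells with Cxcr3 and Cxcr6. Csf1 and Csf2 (M-CSF and GM-CSF) sustain macrophages and other myeloid cells, and Csf3 (G-CSF) drives the making of neutrophils. In pancreatic tumors such signals are known as a means by which tumor cells recruit myeloid cells. Many of these genes are known targets of NF-kappaB, and several of their mRNAs carry AU-rich elements that make them short-lived.

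The promoters are shown because NF-kappaB is the regulator that these genes are best known to share. RefSeq promoters on mouse build GRCm38.p6 were at hand for Ccl20, Cxcl1, Cxcl2, Cxcl10, Csf1 and Csf2. The 250 bases before the start site of 5 of them are given 5′ to 3′ on the gene's strand, with capitals where either strand matched the kappaB pattern GGGNNNNNCC (overlapping matches are merged).
Ccl20: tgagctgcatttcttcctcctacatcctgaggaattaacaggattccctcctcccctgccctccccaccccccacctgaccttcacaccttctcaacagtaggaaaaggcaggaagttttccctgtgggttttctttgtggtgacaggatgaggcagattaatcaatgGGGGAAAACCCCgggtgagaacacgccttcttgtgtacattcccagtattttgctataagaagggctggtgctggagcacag
Cxcl1: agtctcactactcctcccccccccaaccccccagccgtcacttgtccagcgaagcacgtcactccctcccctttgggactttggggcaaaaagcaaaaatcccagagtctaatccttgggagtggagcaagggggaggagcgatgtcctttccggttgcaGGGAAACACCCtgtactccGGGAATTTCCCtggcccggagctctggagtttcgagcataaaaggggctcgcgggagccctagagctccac
Cxcl2: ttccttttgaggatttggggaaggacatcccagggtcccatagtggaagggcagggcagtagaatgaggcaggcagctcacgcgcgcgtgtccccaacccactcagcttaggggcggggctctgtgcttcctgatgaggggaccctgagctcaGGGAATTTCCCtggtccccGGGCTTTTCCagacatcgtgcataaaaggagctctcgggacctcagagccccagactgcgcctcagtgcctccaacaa
Cxcl10: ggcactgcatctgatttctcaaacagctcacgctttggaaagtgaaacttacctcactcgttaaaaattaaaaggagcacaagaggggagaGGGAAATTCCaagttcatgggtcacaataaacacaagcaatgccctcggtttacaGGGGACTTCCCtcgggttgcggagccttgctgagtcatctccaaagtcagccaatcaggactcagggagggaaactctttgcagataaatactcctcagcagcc
Csf1: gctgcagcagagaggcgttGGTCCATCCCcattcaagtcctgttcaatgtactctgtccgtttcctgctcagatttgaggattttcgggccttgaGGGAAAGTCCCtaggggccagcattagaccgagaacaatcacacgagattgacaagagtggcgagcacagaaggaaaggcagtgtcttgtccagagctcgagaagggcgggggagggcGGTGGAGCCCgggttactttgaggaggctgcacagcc
These windows lie at chr1:83116516-83116765 on the plus strand for Ccl20, a gene of chromosome 1, at chr5:90890995-90891244 and chr5:90903649-90903898 on the plus strand for Cxcl1 and Cxcl2, at chr5:92348890-92349139 on the minus strand for Cxcl10, and at chr3:107760470-107760719 on the minus strand for Csf1. The window of Csf2 (chr11:54249900-54250149, minus strand) held no match. The pattern is common: 45.8% of all 32851 promoter windows of this length held it. The letters GGGAATTTCC, picked out after the sequences were seen, began 71 bases before the start site of Cxcl1 and 97 bases before that of Cxcl2, and 28 of the 32851 windows (0.0852%) held them on either strand. The AP-1 pattern TGANTCA was in the window of Cxcl10 alone among the 6, against 6.75% of all windows. The interferon pattern TTTCNNTTTC was likewise in that of Cxcl10 alone, against 2.98% of all windows. The hypoxia response core ACGTG was in that of Cxcl1 alone, against 16.6%. A match is a string of letters and not a shown binding site.

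Values are TPM, which are corrected for transcript length, add up to 1000000 in each library, and keep no read totals, so depth is unknown. Epithelial keratins were abundant throughout: Krt8, Krt18 and Krt19 stood at 1139, 1850 and 1796 TPM or more in every library, while Epcam ran from 0.429 to 19.8 TPM and Cldn4 stayed at or below 1.99 TPM. The 8 epithelial markers summed to 10796 to 11448 TPM at day 0, 5483 to 7611 TPM at day 2 and 6808 to 8580 TPM at day 14. Of the 7 tested, 1 rose and 4 fell at day 2 relative to day 0, and 3 rose and 3 fell at day 14 relative to day 0. The 10 leukocyte markers summed to 3.77 to 5.24 TPM at day 0, 3.19 to 5.35 TPM at day 2 and 9.65 to 13.9 TPM at day 14. Most of that sum came from Cd68 (2.09 to 7.14 TPM over the libraries) and S100a8 (0 to 6.74 TPM). Ptprc, the pan-leukocyte CD45, reached 0.515 TPM at the highest, and Adgre1, like Cd68 a macrophage marker, 0.0687 TPM. The summed levels of 7 fibroblast markers ran from 0.161 to 0.264, 1.03 to 3.12 and 0.72 to 1.81 TPM at day 0, day 2 and day 14, with Pdgfra at 2.81 TPM at most. Those of 4 endothelial markers reached 1.13 TPM, with Pecam1 at 0.535 TPM at most. Those of 5 acinar markers ran from 1.40 to 1.53, 1.08 to 2.81 and 4.49 to 6.42 TPM, with Cela1 at 4.11 TPM at most. What part these markers' cells have in the results below was not tested. A row named Mir6236 took 8.27% to 22.5% of a library's TPM, most in day 2 replicate 3, which was also the lowest library of its day for 6 of the 9 tested chemokine and colony-stimulating factor genes. Its part in those values was not tested.

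Tests used limma on log2(TPM + 1) over the 12693 rows that reached 1 TPM in 3 samples or more, with Benjamini-Hochberg adjustment over all of them, two-sided, and calls at an adjusted p under 0.05. All fold changes and adjusted p-values below come from this fit unless another scaling is named, and the scale understates changes of low genes. Of the 10 genes 9 passed the filter, and Cxcl2 did not. Over the course the attractants parted: Ccl2 fell at both later days, Ccl20 and Cxcl16 were higher at day 14 than at either earlier time, Cxcl5 was higher at day 14 than at day 0 in a call that other settings lost, and Csf1 was lower at day 2 than at day 0.

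**Figure D1:**
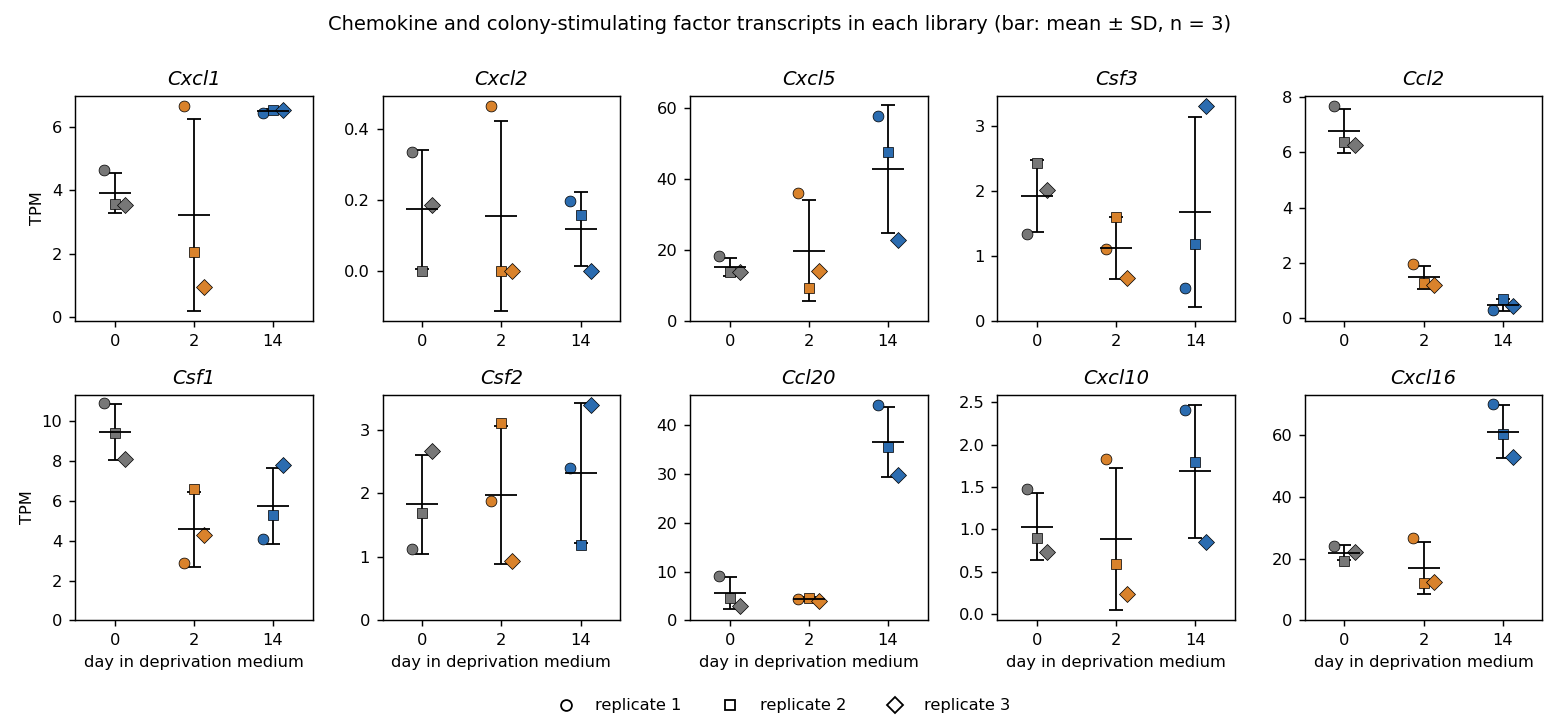
TPM of each of the 10 genes (vertical axes, each panel with its own scale) in the 3 libraries of day 0, day 2 and day 14 (horizontal axis). Points are libraries and bars give the mean and SD of 3. Ccl2 drops to a mean of 0.481 TPM at day 14, while Ccl20 reaches 36.5 and Cxcl16 61.2 TPM there.

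Among the neutrophil attractants, Cxcl5 was the most abundant, and Cxcl2 was barely detected. Cxcl5 stood at 18.3, 14.0 and 13.8 TPM at day 0, at 36.0, 9.36 and 14.1 TPM at day 2, then at 57.9, 47.6 and 22.8 TPM at day 14. The day 2 libraries spread on both sides of day 0, and all day 14 libraries stood above all day 0 libraries. Cxcl5 was higher at day 14 than at day 0, with a ratio of mean TPM of 2.78 and a log2 fold change of 1.33 (SE 0.46, adjusted p = 0.0350). The call was near the threshold. It held in 12 of 21 alternative settings, with adjusted p from 0.00832 to 0.108, and was lost under median-of-ratios scaling (adjusted p = 0.0912). It was also lost without any 1 of the day 0 libraries (adjusted p = 0.0535, 0.0871 and 0.0878 without replicate 1, 2 and 3), without day 14 replicate 1 (adjusted p = 0.108) and without day 14 replicate 2 (adjusted p = 0.0954). Against day 2 the log2 fold change was 1.19 (adjusted p = 0.0787), and at day 2 relative to day 0 it was 0.14 (adjusted p = 0.807). The day 14 value passed against day 2 without day 2 replicate 1 (1.71, adjusted p = 0.0115) and without day 14 replicate 3 (1.58, adjusted p = 0.0364).

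Cxcl1, the mouse counterpart of the growth-regulated oncogene chemokines, gave 4.65, 3.57 and 3.54 TPM at day 0, 6.67, 2.05 and 0.952 TPM at day 2, then 6.44, 6.54 and 6.54 TPM at day 14. The day 14 libraries lay almost on 1 value and above every day 0 library; the day 2 libraries spread from below all of them to above them. No comparison of Cxcl1 passed the test: its log2 fold change was 0.62 at day 14 relative to day 0 (SE 0.40, adjusted p = 0.219), 1.07 at day 14 relative to day 2 (adjusted p = 0.0716) and -0.45 at day 2 relative to day 0 (adjusted p = 0.356). These results rested on day 2 replicate 1. Without it Cxcl1 was lower at day 2 than at day 0 by 1.01 on the log2 scale (adjusted p = 0.00390) and higher at day 14 than at day 2 by 1.62 (adjusted p = 0.00137). It was then also higher at day 14 than at day 0 (adjusted p = 0.0213), as it was in a fit of the day 14 and day 0 libraries alone (adjusted p = 0.00647). Cxcl2, a close relative of Cxcl1, was listed at 0.335, 0 and 0.186 TPM at day 0, 0.467, 0 and 0 TPM at day 2, then 0.196, 0.159 and 0 TPM at day 14, and was not tested. Cxcl1 and Cxcl2, which are next to each other on chromosome 5 and whose windows above hold the same GGGAATTTCC letters, stood at different levels in every library. What part these letters have in either level was not tested.

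Csf3, the neutrophil growth factor, was low and uneven, at 1.34, 2.43 and 2.02 TPM at day 0, 1.12, 1.61 and 0.658 TPM at day 2, then 0.515, 1.19 and 3.32 TPM at day 14. The day 14 libraries spanned the whole range of the other days. None of its comparisons passed, with log2 fold changes of -0.47 at day 2 relative to day 0 (adjusted p = 0.283), -0.25 at day 14 relative to day 0 (adjusted p = 0.567) and 0.22 at day 14 relative to day 2 (adjusted p = 0.679).

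The monocyte attractant Ccl2 fell at day 2 and fell further at day 14. It gave 7.68, 6.36 and 6.26 TPM at day 0, 1.96, 1.29 and 1.20 TPM at day 2, then 0.294, 0.715 and 0.433 TPM at day 14. Each later day lay wholly below the earlier one. Mean TPM was 4.57-fold lower at day 2 than at day 0 and 14.1-fold lower at day 14 than at day 0. All day 14 values were below 1 TPM, so the size of that fall is uncertain. Over the alternatives its log2 fold change ran from -3.62 to -1.10. The log2 fold changes were -1.66 (SE 0.17, adjusted p = 4.70e-05) at day 2 relative to day 0, -2.40 (adjusted p = 2.20e-05) at day 14 relative to day 0 and -0.74 (adjusted p = 0.0116) at day 14 relative to day 2. All 3 calls held in each of the 20 alternatives that tested Ccl2. The genes beside Ccl2 on chromosome 11 that code for related monocyte and eosinophil attractants were near 0: Ccl7 reached 0.761 TPM, Ccl11 0.0975 TPM, and Ccl12 was listed at 0 in every library. Ccl2 also overlaps a predicted gene on the other strand, not analysed here.

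Csf1, the survival factor of macrophages, gave 10.9, 9.41 and 8.09 TPM at day 0, 2.87, 6.58 and 4.29 TPM at day 2, then 4.11, 5.28 and 7.83 TPM at day 14. Both later days lay below day 0 and overlapped each other. Csf1 was lower at day 2 than at day 0, with a log2 fold change of -0.95 (SE 0.27, adjusted p = 0.0132) that stayed past the threshold in 21 of 21 alternatives. The value for day 14 relative to day 0 was -0.66 (adjusted p = 0.0621), a call missed in the deposited scale and made under median-of-ratios scaling (-0.92, adjusted p = 0.0169). It was also made without day 2 replicate 1 (adjusted p = 0.0379), day 2 replicate 2 (adjusted p = 0.0344) or day 14 replicate 3 (adjusted p = 0.0258), and in 7 of 21 alternatives in all. For day 14 relative to day 2 it was 0.29 (adjusted p = 0.443).

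Csf2, a growth factor of granulocytes, macrophages and dendritic cells, gave 1.13, 1.68 and 2.67 TPM at day 0, 1.89, 3.11 and 0.935 TPM at day 2, then 2.40, 1.18 and 3.38 TPM at day 14. Its day groups overlapped in every comparison. Its log2 fold changes were 0.04 (adjusted p = 0.922) at day 2 relative to day 0, 0.21 (adjusted p = 0.616) at day 14 relative to day 0 and 0.17 (adjusted p = 0.739) at day 14 relative to day 2. Within the 3 colony-stimulating factors, Csf1 made up 63.3% to 81.6% of the summed TPM at day 0, 48.8% to 72.9% at day 2 and 53.9% to 69.0% at day 14.

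Of the lymphocyte attractants, Ccl20 had the widest swing late in the course. It gave 9.19, 4.52 and 2.95 TPM at day 0, 4.37, 4.68 and 3.99 TPM at day 2, then 44.1, 35.6 and 29.9 TPM at day 14. The day 2 values lay inside the day 0 range, and every day 14 library was above every earlier one. Mean TPM at day 14 was 6.58-fold that at day 0 and 8.41-fold that at day 2, with log2 fold changes of 2.61 (SE 0.30, adjusted p = 0.000156) and 2.80 (adjusted p = 0.000249). At day 2 relative to day 0 it was -0.18 (adjusted p = 0.623).

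Cxcl16, which is made both as a membrane-bound and as a shed chemokine, was among the most abundant at each day. It gave 24.2, 19.4 and 22.2 TPM at day 0, 26.8, 12.1 and 12.4 TPM at day 2, then 70.1, 60.5 and 53.1 TPM at day 14. Day 14 lay wholly above both other days, and the day 2 libraries fell on both sides of day 0. The log2 fold change was 1.44 (SE 0.27, adjusted p = 0.00186) at day 14 relative to day 0 and 1.87 (adjusted p = 0.00115) at day 14 relative to day 2. At day 2 relative to day 0 it was -0.43 (adjusted p = 0.194), and without day 2 replicate 1 it was -0.79 (adjusted p = 0.00255). The day 14 calls of Ccl20 and Cxcl16 against both other days held in 21 of 21 alternatives. Cxcl16 overlaps Zmynd15 on the other strand, and whether reads were assigned by strand is not given in the sources used here. Zmynd15 stood at 1.34 to 2.47 TPM at day 0, 1.62 to 9.09 TPM at day 2 and 4.32 to 6.37 TPM at day 14.

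Cxcl10, an interferon-induced chemokine, stayed low. It gave 1.48, 0.898 and 0.729 TPM at day 0, 1.83, 0.590 and 0.235 TPM at day 2, then 2.41, 1.79 and 0.850 TPM at day 14, and its day groups overlapped in every comparison. Its log2 fold changes were -0.18 (adjusted p = 0.654) at day 2 relative to day 0, 0.37 (adjusted p = 0.359) at day 14 relative to day 0 and 0.55 (adjusted p = 0.227) at day 14 relative to day 2. Cxcl9, its close relative among the Cxcr3 ligands, reached 0.683 TPM at the highest and was not tested. Cxcl10 overlaps Art3 on the other strand, which averaged 0.0705 TPM at day 14 and was listed at 0 in the libraries of the other days.

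Large parts of the whole table also moved, so the counts have to be read against that. At day 2 relative to day 0, 2 of the 9 tested genes were called, both lower (22.2%), where 59.0% of all tested rows were called and 31.9% were called lower. Of day 14 relative to day 0, 3 were called higher (Ccl20, Cxcl5, Cxcl16) and 1 lower (Ccl2), which is 44.4% of the 9, where 55.1% of all rows were called, 36.2% higher and 18.8% lower. For day 14 relative to day 2, 2 were called higher (Ccl20, Cxcl16) and 1 lower (Ccl2), which is 33.3%, where 31.2% of all rows were called, 27.4% higher and 3.79% lower. The share called was thus below the background in the comparisons with day 0 and close to it at day 14 relative to day 2, so the number called is no result about these genes. At day 2 the libraries did not overlap those of day 0 for 2 of the 9, both lower (Ccl2, Csf1), where 66.5% of all rows did not overlap, 31.7% higher and 34.8% lower. Day 14 did not overlap day 0 for 6, with 4 higher (Ccl20, Cxcl1, Cxcl5, Cxcl16) and 2 lower (Ccl2, Csf1), where 66.6% of all rows did not overlap, 43.2% higher and 23.3% lower. Day 14 did not overlap day 2 for 3, with 2 higher (Ccl20, Cxcl16) and 1 lower (Ccl2), where 41.3% of all rows did not overlap, 35.1% higher and 6.11% lower. The median log2 fold change of the 9 was -0.43, 0.37 and 0.55 in the 3 comparisons, against -0.02, 0.22 and 0.25 over all tested rows.

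Median-of-ratios scaling, which sets the typical gene equal between libraries, moved the median of all rows at day 14 relative to day 0 to -0.05 and at day 14 relative to day 2 to -0.01. Relative to the median of all rows, Ccl20 was higher at day 14 than at day 0 by 2.39 on the deposited scale and by 2.39 after scaling. Cxcl16 was higher by 1.22 and by 1.20, and Cxcl5 by 1.11 and by 1.09. Ccl2 stood at -2.62 and -2.49 on this relative scale, and Csf1 at -0.88 and -0.87. The scaling divides each library by 1 factor, so it shifts nearly all rows alike. Distances to the median therefore stay nearly the same by construction, and their likeness is no check of these genes. Under this scaling day 14 relative to day 0 gave 2 genes higher (Ccl20, Cxcl16) and 2 lower (Ccl2, Csf1). In both other comparisons the calls were those of the deposited scale. Over all rows the split at day 14 relative to day 0 was 4601 higher and 2389 lower on the deposited scale, and 3085 higher and 4027 lower after scaling. For day 14 relative to day 2 it was 3474 higher and 481 lower on the deposited scale, and 1572 higher and 1485 lower after scaling.

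**Figure D2:**
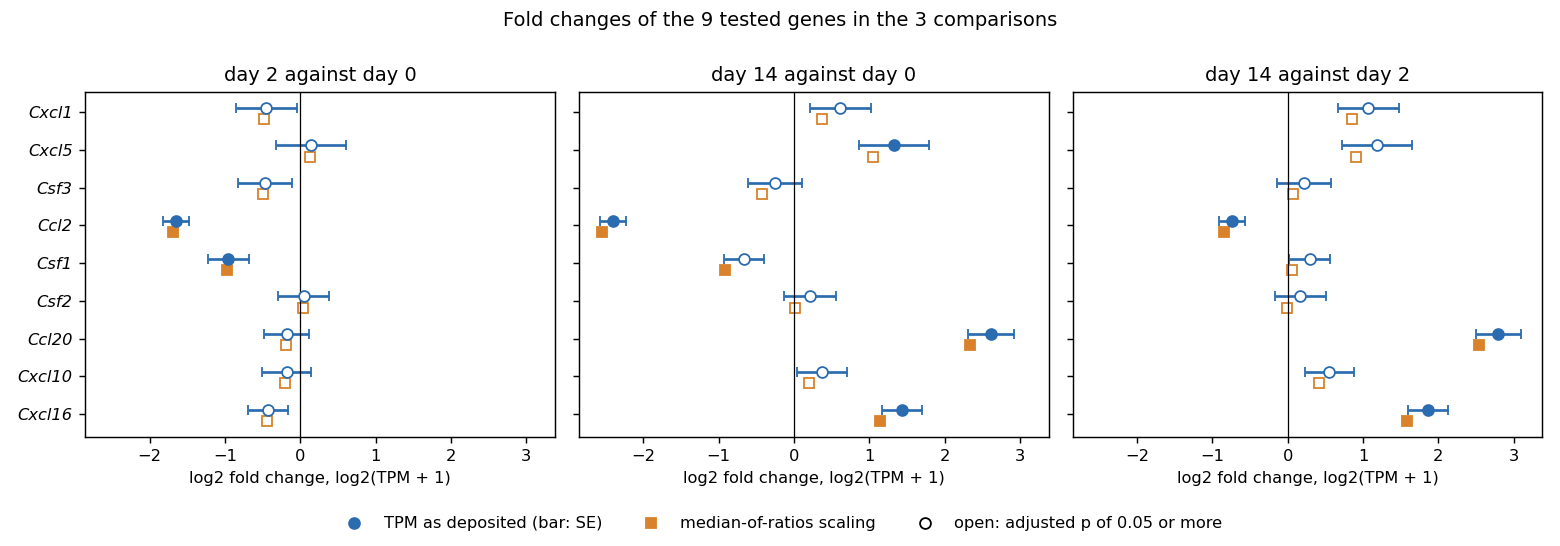
Log2 fold change, on log2(TPM + 1), of the 9 tested genes in the 3 comparisons, on the deposited scale and after median-of-ratios scaling. Bars are standard errors, shown for the deposited scale, and filled symbols have an adjusted p under 0.05. Ccl20 (2.61) and Cxcl16 (1.44) stand to the right and Ccl2 (-2.40) to the left at day 14 relative to day 0.

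Shares within a library do not depend on scaling between libraries. Of the summed TPM of the 7 chemokines, the lymphocyte attractants Ccl20, Cxcl10 and Cxcl16 took 51.0% to 52.9% at day 0, 42.2% to 57.7% at day 2 and 64.0% to 73.8% at day 14. The neutrophil attractants Cxcl1, Cxcl2 and Cxcl5 took 35.3% to 36.0% at day 0, 38.0% to 55.3% at day 2 and 25.8% to 35.6% at day 14. The share of Ccl2 was 11.7% to 13.1%, 2.50% to 4.29% and 0.162% to 0.467% at day 0, day 2 and day 14. So the lymphocyte attractants' share at day 14 lay wholly above both other days, the neutrophil attractants' share at day 2 wholly above the other days, and that of Ccl2 lay lower at each later day without overlap. Among the lymphocyte attractants the day 14 share stood apart for Ccl20, at 23.3% to 26.3%, against 5.94% to 14.0% at day 0 and at most 15.6% at day 2. The share of Cxcl16 overlapped between all days, at 36.7% to 44.7%, 34.3% to 40.2% and 38.6% to 46.7% at day 0, day 2 and day 14, and that of Cxcl10 was 0.748% to 1.33% at day 14, against 1.46% to 2.24% at day 0. The neutrophil attractants' summed TPM did not stand apart at day 2: it was 43.2, 11.4 and 15.0 TPM there, against 23.3, 17.5 and 17.6 TPM at day 0. Nor did the ratio of their sum to that of the lymphocyte attractants. That ratio was 1.31, 0.658 and 0.900 at day 2, on both sides of 0.670, 0.706 and 0.678 at day 0. At day 14 it was 0.553, 0.554 and 0.350. The sum of all 7 was 48.7 to 65.8 TPM at day 0, 30.0 to 78.1 TPM at day 2 and 114 to 181 TPM at day 14. The ratio of Ccl20 to Ccl2 in the same library was 1.20, 0.711 and 0.472 at day 0, 2.23, 3.63 and 3.33 at day 2, and 150, 49.8 and 69.0 at day 14. Those of day 14 divide by Ccl2 values of 0.294, 0.715 and 0.433 TPM, so their size is uncertain. These shares are of transcripts and say nothing of secreted protein.

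**Figure D3:**
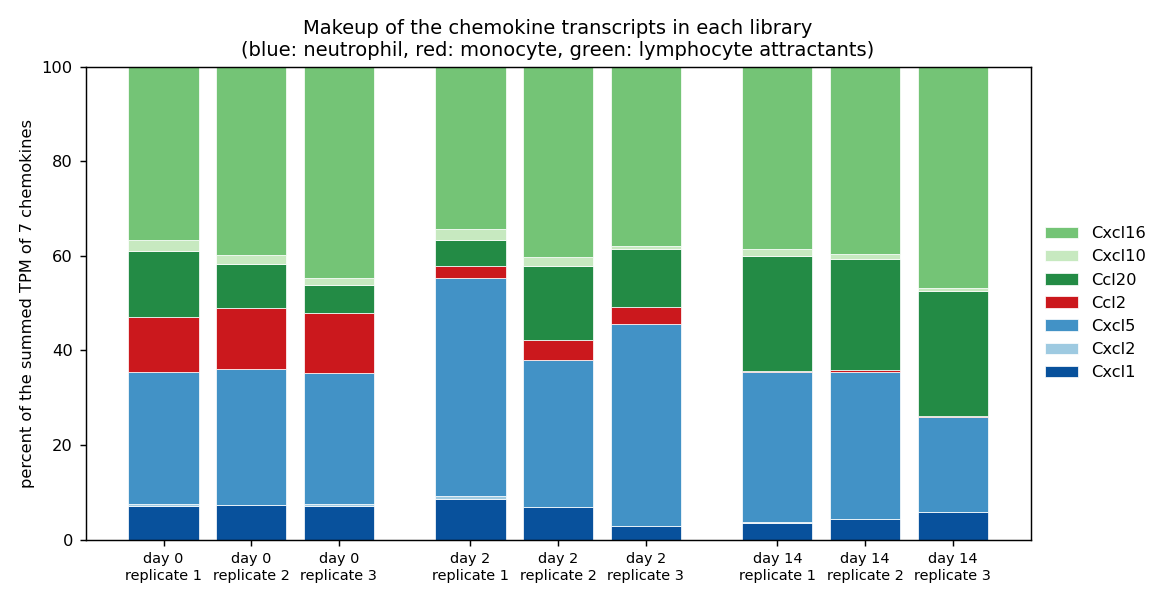
Percent of the summed TPM of the 7 chemokines (vertical axis) that each gene took in each of the 9 libraries (horizontal axis). Ccl2 takes 11.7% to 13.1% at day 0 and no more than 0.467% at day 14, where the lymphocyte attractants take 64.0% to 73.8%.

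Day 2 replicate 1 was the highest of its day for Ccl2, Cxcl1, Cxcl5, Cxcl10 and Cxcl16 and the lowest for Csf1. On the log2(TPM + 1) scale it lay above the day mean by 1.10 for Cxcl1, 1.04 for Cxcl5, 0.71 for Cxcl16 and 0.68 for Cxcl10. Nfkbia, the NF-kappaB inhibitor that NF-kappaB itself induces, was at 68.1 TPM in that library and at 23.1 and 23.0 TPM in the others of day 2, and its part in the chemokine values was not tested. Day 0 replicate 1 was the highest of its day for 7 of the 9 genes, all but Csf2 and Csf3. At day 14, replicate 1 was the highest for Ccl20, Cxcl5, Cxcl10 and Cxcl16, and replicate 3 for Cxcl1, Csf1, Csf2 and Csf3. Without day 2 replicate 1, the fits called 4 genes at day 2 relative to day 0, all lower (Ccl2, Csf1, Cxcl1, Cxcl16). They called 6 at day 14 relative to day 0 (Cxcl1 higher and Csf1 lower, adjusted p = 0.0379, in addition to the 4 above). At day 14 relative to day 2 they called 5 (Cxcl1 and Cxcl5 in addition).

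**Figure D4:**
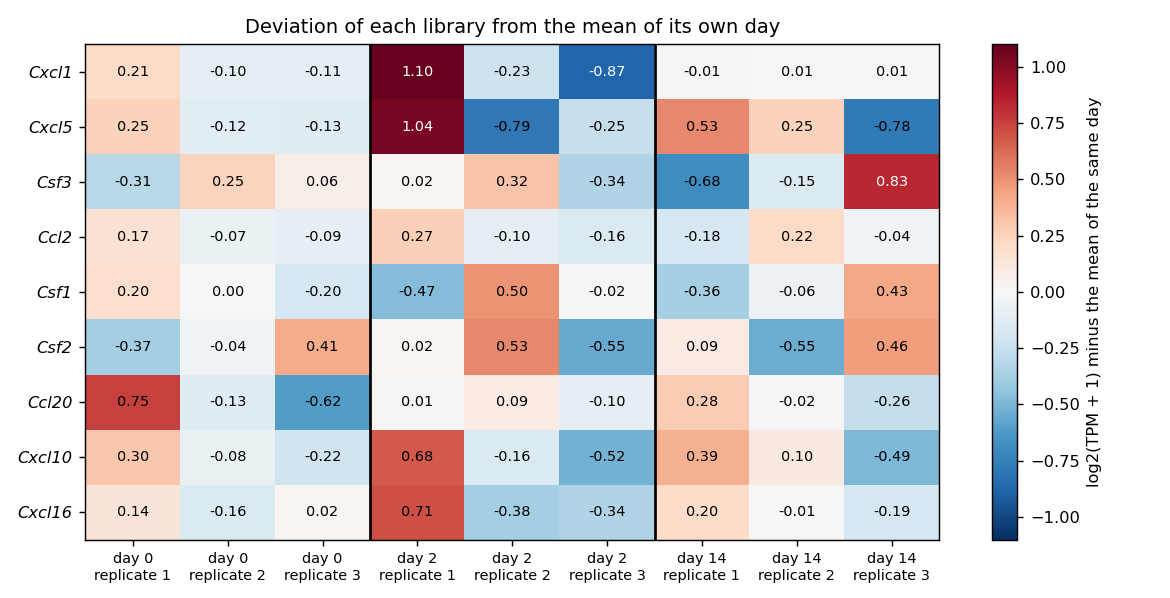
Deviation of each library from the mean of its day, in log2(TPM + 1), for the 9 tested genes (rows) and 9 libraries (columns), given as colour and number. Day 2 replicate 1 stands out, with 1.10 for Cxcl1 and 1.04 for Cxcl5.

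In the order of levels, TPM being corrected for length, Cxcl16 came first at day 0 (21.9 TPM), before Cxcl5 (15.4), Csf1 (9.48), Ccl2 (6.77), Ccl20 (5.55) and Cxcl1 (3.92). Ccl2 overlapped Ccl20 there, and Ccl20 overlapped Cxcl1. At day 2 Cxcl5 (19.8 TPM) and Cxcl16 (17.1) led and overlapped each other, and every other neighbour pair except Cxcl16 and Csf1 overlapped as well. At day 14 Cxcl16 (61.2 TPM), Cxcl5 (42.7) and Ccl20 (36.5) led, each overlapping the next. All 3 were clear of Cxcl1 (6.51) and Csf1 (5.74), which overlapped each other. Ccl2 was at 0.481 TPM at day 14, above Cxcl2 alone, and did not overlap Cxcl2.

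The genes whose course was most like each of the 9 over the 9 samples, by Pearson correlation on log2(TPM + 1) among 9396 candidates, are given as a description. The 9 points of each correlation share their libraries. For Ccl2 they were Hnrnpa0 (r = 0.995) and Rpl27 (r = 0.991). For Ccl20 they were Degs2 (r = 0.978) and Vnn1 (r = 0.975), and for Cxcl16 Taok2 (r = 0.989) and Wdr6 (r = 0.983). For Cxcl5 they were Zfp707 (r = 0.976) and Tspan14 (r = 0.968), and for Cxcl1 Zbtb48 (r = 0.953) and Tead3 (r = 0.949). For Csf1 they were Krt80 (r = 0.963) and Trub2 (r = 0.959). The lowest leading correlations were those of Cxcl10 with Rhbdf1 (r = 0.933) and Neurl1b (r = 0.916), Csf2 with Tpp2 (r = 0.938) and Klf6 (r = 0.937), and Csf3 with Fez2 (r = 0.931) and Nanos1 (r = 0.916).

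Other ligands of the same kinds were mostly low. Counts of called genes in the related lists and marker sets have to be read against the shares of all tested rows. At day 2 relative to day 0, 27.1% of all rows were called higher and 31.9% lower. At day 14, 36.2% were higher and 18.8% lower relative to day 0, and 27.4% and 3.79% relative to day 2. A count near these shares is no result about its list. Genes below 1 TPM throughout day 0 could enter a list's count only through later days, which favours rises there. Of 4 other neutrophil attractants 1 was tested, Cxcl3, which lies in the same chromosome 5 cluster as Cxcl5, Cxcl1 and Cxcl2. Cxcl3 gave 3.81, 3.98 and 1.51 TPM at day 0, 1.62, 1.12 and 1.47 TPM at day 2, then 2.66, 0.604 and 0.836 TPM at day 14. Its log2 fold change at day 14 relative to day 0 was -0.83 (adjusted p = 0.0700), past the threshold under median-of-ratios scaling, where Cxcl5 did not pass (adjusted p = 0.0912). The signs of Cxcl3 and Cxcl5 differed at day 14 relative to day 0, but neither the deposited scale nor this scaling called both. Of 12 other monocyte and eosinophil attractants 1 was tested, Cx3cl1, with log2 fold changes of -0.18, 0.09 and 0.27 at day 2 relative to day 0, day 14 relative to day 0 and day 14 relative to day 2 (adjusted p = 0.610, 0.805 and 0.503). Of 14 other lymphocyte and dendritic cell attractants 4 were tested: 1 rose and 1 fell at day 2 relative to day 0, 1 rose at day 14 relative to day 0, and 2 rose at day 14 relative to day 2. Ccl17, a Ccr4 ligand, was listed at 0, 0.270 and 0 TPM at day 2, against 1.58, 4.46 and 2.93 TPM at day 0 (log2 fold change -1.81, adjusted p = 0.000614). It stood at 4.95, 2.75 and 5.16 TPM at day 14, higher than at day 2 by 2.25 on the log2 scale (adjusted p = 0.000672). Ccl25, a Ccr9 ligand, was higher at day 14 than at day 2 (0.88, adjusted p = 0.00938), and it overlaps Elavl1 on the other strand. Ccl27a was higher at day 2 than at day 0 (0.93, adjusted p = 0.00852) and at day 14 than at day 0 (0.74, adjusted p = 0.0263). It has near-identical copies in the mouse genome and overlaps Il11ra1, so its values are uncertain, and its day 14 call was lost under median-of-ratios scaling (adjusted p = 0.118).

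Among 13 other haematopoietic growth factors 7 were tested, and 2 rose and 1 fell at day 2 relative to day 0, 5 rose at day 14 relative to day 0, and 3 rose at day 14 relative to day 2. The day 14 count depended on scaling, with 3 higher and 1 lower under median-of-ratios scaling. Flt3l, which sustains dendritic cell precursors, averaged 11.0 ± 1.86 TPM at day 14, against 4.71 ± 1.52 TPM at day 0 (SD, n = 3, log2 fold change 1.09, adjusted p = 0.00190). Il15, a growth factor of NK cells and memory T cells, stood at 10.2, 4.18 and 5.25 TPM at day 14, against 2.29, 2.37 and 3.77 TPM at day 0 (0.92, adjusted p = 0.0181), a call lost under median-of-ratios scaling (adjusted p = 0.0552). Il11 stood at 2.24, 1.33 and 4.31 TPM at day 14, against 0.692, 0.389 and 0.247 TPM at day 0 (1.26, adjusted p = 0.00427), a call that quantile normalization lost (adjusted p = 0.109). With every day 0 library below 1 TPM, Il11 too entered the test through later days alone.

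Most receptors for these signals were too low to test. Of 23 chemokine receptors 3 were tested, all 3 rose at day 2 relative to day 0, and 2 rose at day 14 relative to day 0, while under quantile normalization these counts were 1 and 0. Under median-of-ratios scaling 2 were tested, and the counts were 2 and 1. Without day 2 replicate 1, 2 were tested, and the counts were 1 and 1. Cxcr2, the receptor of Cxcl1, Cxcl2 and Cxcl5, stood at 2.68, 1.67 and 2.04 TPM at day 2, against 0.765, 1.09 and 1.43 TPM at day 0 (0.58, adjusted p = 0.0246), a call that quantile normalization lost (adjusted p = 0.171). At day 14 it stood at 3.17, 2.15 and 2.35 TPM (0.76 against day 0, adjusted p = 0.00757, and adjusted p = 0.617 under quantile normalization). Ackr3, a receptor that takes up chemokines without G protein signalling, averaged 26.0 ± 8.74 TPM at day 2, against 11.7 ± 1.98 TPM at day 0 (SD, n = 3, 1.06, adjusted p = 0.0117). Ccr10 rose at both later days against day 0, calls that quantile normalization lost with the sign at day 14 turned (-0.04), but it overlaps Cntnap1 on the other strand and stayed at or below 1.42 TPM. It reached 1 TPM in later libraries alone, so it entered the test through the days where it was high.

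Of 7 colony-stimulating factor receptors 2 were tested, and both rose at day 14 relative to day 0 and against day 2. Csf1r, the receptor of Csf1 and normally a gene of macrophages, stood at 5.20, 2.31 and 4.41 TPM at day 14, against 0.321, 0.153 and 0.171 TPM at day 0 (1.99, adjusted p = 0.000194). It was at 0.708, 0.692 and 0.276 TPM at day 2. Only the day 14 libraries of Csf1r reached 1 TPM, so it entered the test through the day where it was high. That both tested receptors rose is therefore no result about this list. Csf1r and the leukocyte marker sum were both highest at day 14. Of the 10 leukocyte markers 2 were tested. At day 2 relative to day 0, 1 rose and 1 fell, and 1 rose at day 14 relative to day 0. Relative to day 2, 2 rose at day 14, and 1 did so under median-of-ratios scaling. The 8 that were not tested, Adgre1 among them, reached at most 0.842 TPM. What part leukocyte transcripts have in the value of Csf1r was not tested. Csf1r overlaps Hmgxb3 on the other strand. Csf2ra, the binding chain of the Csf2 receptor, stood at 8.21, 4.58 and 5.27 TPM at day 14, against 1.77, 2.35 and 2.52 TPM at day 0 (1.10, adjusted p = 0.00312), a call that quantile normalization lost (adjusted p = 0.0999).

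Signals upstream of these chemokines did not all move the same way. Of 13 upstream cytokines and toll-like receptors 11 were tested, and 3 rose and 2 fell at day 2 relative to day 0, 6 rose and 1 fell at day 14 relative to day 0, and 4 rose and 1 fell at day 14 relative to day 2. Under median-of-ratios scaling the day 14 counts were 5 higher and 2 lower against day 0, and 2 higher and 1 lower against day 2, and under quantile normalization 3 higher and 1 lower against day 0. Over all tested rows, 36.2% were called higher and 18.8% lower at day 14 relative to day 0. At day 14 relative to day 2 these shares were 27.4% and 3.79%, and at day 2 relative to day 0 27.1% and 31.9%. Tnf was listed at 0 in every library and Il1b reached 0.366 TPM. Tlr2 averaged 2.08 ± 0.358 TPM at day 14, against 0.438 ± 0.117 TPM at day 0 (SD, n = 3, 1.09, adjusted p = 0.000423). Tlr3 stood at 10.6, 6.71 and 5.64 TPM at day 14, against 2.95, 3.52 and 2.90 TPM at day 0 (1.03, adjusted p = 0.00297), a call that quantile normalization lost (adjusted p = 0.0828). Il18 rose at both later days against day 0 (1.17 at day 2, adjusted p = 0.00172, and 1.76 at day 14, adjusted p = 0.000255), and it overlaps Bco2 and Tex12 on the other strand. Tlr2 and Il18 were below 1 TPM in every day 0 library, so both entered the test through later days alone. Il33, chosen after its values were seen, stood at 69.2, 66.0 and 72.9 TPM at day 0, 7.80, 9.29 and 13.6 TPM at day 2, then 72.1, 64.1 and 44.1 TPM at day 14. This alarmin was lower at day 2 than at day 0 by a log2 fold change of -2.68 (adjusted p = 1.04e-05) and higher at day 14 than at day 2 by 2.45 (adjusted p = 7.54e-05).

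The list of NF-kappaB pathway genes holds subunits, inhibitors and others such as Ikbkg. Of its 17 genes, all tested, 5 rose and 3 fell at day 2 relative to day 0, and 7 rose in either comparison of day 14. By limma 0 fell there, also at an unadjusted p under 0.05. Beside these 7 of 17, 36.2% of all tested rows were called higher at day 14 relative to day 0 and 27.4% relative to day 2. Under median-of-ratios scaling the day 14 counts were 5 higher and 3 lower against day 0, and 2 higher and 1 lower against day 2. Relb, a subunit of the alternative pathway, averaged 30.6 ± 3.79 TPM at day 14, against 11.3 ± 1.41 TPM at day 0 (SD, n = 3, 1.36, adjusted p = 0.000569). Nfkbia stood at 42.6, 32.8 and 30.5 TPM at day 14, against 16.9, 15.9 and 11.0 TPM at day 0 (1.23, adjusted p = 0.0213), a call lost under median-of-ratios scaling (adjusted p = 0.0611). Ikbkg rose at each later day against day 0 but overlaps G6pdx on the other strand.

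Of 11 factors that destabilise or stabilise AU-rich mRNAs, all tested, 2 rose and 3 fell at day 2 relative to day 0, 3 rose and 2 fell at day 14 relative to day 0, and 0 were called by limma at day 14 relative to day 2 (2 higher and 1 lower at an unadjusted p under 0.05). Median-of-ratios scaling turned the balance to 2 higher and 4 lower at day 14 relative to day 0. It also called 2 lower at day 14 relative to day 2, Hnrnpd (-0.48, adjusted p = 0.00584) and Zfp36l2 (-0.81, adjusted p = 0.0145). Zfp36l1, which promotes decay of such mRNAs, averaged 83.5 ± 22.4 TPM at day 14, against 17.0 ± 1.99 TPM at day 0 (SD, n = 3, 2.21, adjusted p = 0.000128), and its day 2 value was already higher (1.61, adjusted p = 0.000434). Hnrnpd, known as AUF1, averaged 27.1 ± 1.67 TPM at day 14, against 58.4 ± 1.95 TPM at day 0 (-1.08, adjusted p = 4.66e-05). Tia1, which silences translation of AU-rich mRNAs, averaged 27.1 ± 2.99 TPM at day 14, against 14.1 ± 1.81 TPM at day 0 (0.90, adjusted p = 0.00226).

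Of 13 interferon signalling genes that act upstream of Cxcl10, all tested, 4 rose and 1 fell at day 2 relative to day 0, 8 rose and 1 fell at day 14 relative to day 0, and 7 rose at day 14 relative to day 2, where 0 fell by limma, also at an unadjusted p under 0.05. Under median-of-ratios scaling the day 14 counts were 6 higher and 1 lower against day 0, and 2 higher and 1 lower against day 2. Irf7 averaged 6.36 ± 1.17 TPM at day 14, against 0.666 ± 0.194 TPM at day 0 (SD, n = 3, 2.14, adjusted p = 2.93e-05), and overlaps Phrf1 on the other strand. Ddx58, the RNA sensor RIG-I, averaged 2.76 ± 0.446 TPM at day 14, against 0.827 ± 0.0644 TPM at day 0 (1.04, adjusted p = 0.000377). Tmem173, which codes for STING, averaged 15.4 ± 1.07 TPM at day 14, against 8.27 ± 0.390 TPM at day 0 (0.82, adjusted p = 0.00215). Irf7 and Ddx58 were below 1 TPM in every day 0 library. Both entered the test through later days alone, where they were high, so their place among the risen genes is partly set by the filter. Cxcl10 itself passed no comparison, as given above.

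Of 7 proteases that cut or shed chemokines 3 were tested, and 1 rose and 2 fell at day 2 and at day 14, each against day 0. Adam10 and Adam17 are known to shed Cxcl16 from the cell surface. Adam17 averaged 12.2 ± 0.741 TPM at day 14, against 19.2 ± 0.412 TPM at day 0 (SD, n = 3, -0.61, adjusted p = 0.00141), with Iah1 on the other strand. Adam10 averaged 41.1 ± 3.26 TPM at day 14, against 32.3 ± 3.77 TPM at day 0 (0.34, adjusted p = 0.0282), a call lost under median-of-ratios scaling (0.05, adjusted p = 0.668). Mmp14, known to cleave chemokines, averaged 47.0 ± 10.8 TPM at day 14, against 81.9 ± 7.30 TPM at day 0 (-0.81, adjusted p = 0.00442).

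**Figure D5:**
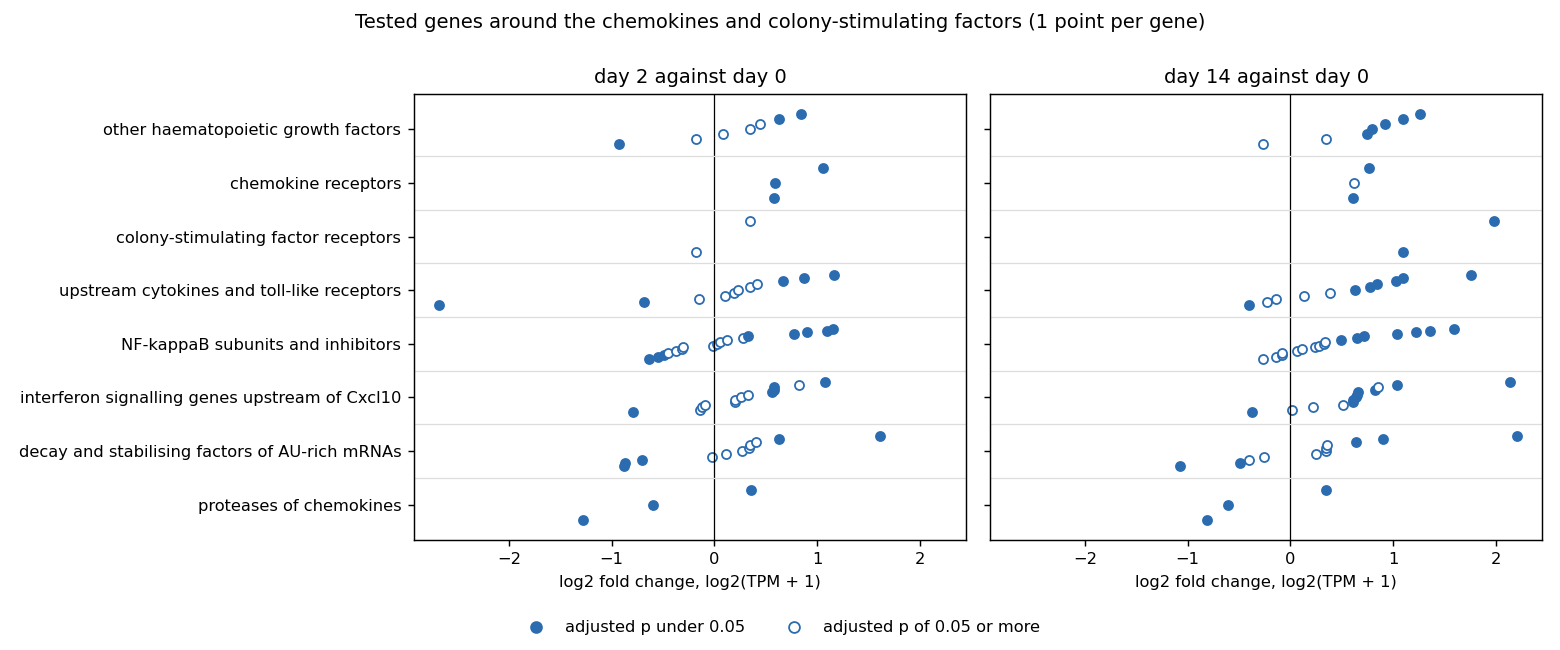
Log2 fold change, on log2(TPM + 1), of every tested gene of 8 related lists (rows) at day 2 and at day 14 relative to day 0, filled where the adjusted p is under 0.05. The 3 points farthest right at day 14 are Zfp36l1 (2.21), Irf7 (2.14) and Csf1r (1.99). Irf7 and Csf1r were below 1 TPM in every day 0 library. The row of NF-kappaB subunits and inhibitors also holds Ikbkg.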

How the data were processed

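Total RNA of 9 samples was sequenced, with kits by Qiagen and libraries by Novogene per the labels' protocols, and quantified with Salmon per the submitters' processing notes. The deposited values are gene TPM, scaled by the authors to 1000000 in each sample. Which Salmon version, genome build, annotation and strand setting were used is not given in the sources used here. Salmon estimates may be shared among similar transcripts such as those of Cxcl1 and Cxcl2. Depth is unknown, since TPM keep no read totals, so no counting intervals or floors are given.

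Here log2(TPM + 1) of rows that reached 1 TPM in 3 samples or more (12693 kept, 11800 left out) was fitted with limma 3.58.1 in R 4.3.3, all 9 samples, 1 mean per day and a variance trend. The fit was also run on simulated data with independent noise and 200 changed genes. That setting differs from these data, where far more rows were called, so it says nothing of the calls given here. Genes and lists were chosen with earlier results of these data known, and the related lists come from textbook knowledge. Named were the 10 genes; from each related list up to 3 called in any comparison, those that differed most between day 14 and day 0; and for each tested gene the 2 highest correlations among genes with a mean of at least 5 TPM, leaving out predicted genes and small RNA rows. Cxcl3, Cx3cl1, Cxcl9, Zfp36l2, Il33, Tnf, Il1b and the genes beside or overlapping the 10 were named outside that rule, after their values were seen. Neighbours, overlaps and opposite strands come from mouse annotations on GRCm38. Alternatives changed the pseudocount (0.1, 5), the filter (none, mean of at least 5 TPM), the scaling (median of ratios, quantile, without the 20 most abundant rows, without small RNA rows and Rn45s), the variance model, the groups fitted and the replicate block, and left out each library. Python 3.11.15 with matplotlib 3.10.9 drew the figures.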

Additional observations from a re-analysis of the deposited data

How the results depend on the processing

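Results were compared with 21 alternatives. Of the log2 fold changes of the 9 genes under them, 511 kept their direction and side of the threshold, 15 gained a call, 9 lost one and 17 changed sign, all of these 17 of results that had not passed. With a mean of at least 5 TPM, 1 gene was called at day 2 against day 0, because Ccl2 was no longer tested. Leaving out 1 library gave 2 to 4 called genes at day 2 against day 0, 3 to 6 at day 14 against day 0 and 3 to 5 at day 14 against day 2, each time the most without day 2 replicate 1. Over all rows the counts were 7484, 6990 and 3955 called, and without 1 library 6356 to 7615, 5622 to 7264 and 2832 to 4286. With only the groups compared in the fit, 2616 rows were called at day 14 against day 2.

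Signs turned under quantile normalization for Csf2 at day 2 against day 0 (-0.22), Cxcl10 (-0.29) and Csf2 (-0.42) at day 14 against day 0, and Csf1 (-0.10), Csf2 (-0.20) and Csf3 (-0.12) at day 14 against day 2. Median-of-ratios scaling turned Csf2 at day 14 against day 2 (-0.011). Without 1 library the log2 fold change at day 2 against day 0 ran from -0.49 to 0.19 for Ccl20, -0.38 to 0.54 for Cxcl5, -0.52 to 0.077 for Cxcl10 and -0.22 to 0.32 for Csf2. At day 14 against day 0 it ran from -0.016 to 0.49 for Csf2 and -0.67 to 0.089 for Csf3. At day 14 against day 2 it ran from -0.11 to 0.44 for Csf2 and -0.20 to 0.56 for Csf3. The cause was not tested.

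The median of all rows moved to 0.15 at day 2 against day 0 without the 20 most abundant rows and to 0.09 without small RNA rows and Rn45s, and under quantile normalization to -0.02 for day 14 over day 0 and to -0.06 for day 14 over day 2. Removing the 20 most abundant rows gave 4563 rows higher and 3457 lower at day 2 against day 0, and 2590 higher and 818 lower at day 14 against day 2, and removing small RNA rows and Rn45s gave 4216 and 3686 at day 2 against day 0. On the deposited scale these were 3438 and 4046 at day 2 against day 0. Quantile normalization gave 2843 higher and 3363 lower at day 14 against day 0, and 1470 higher and 1905 lower at day 14 against day 2. With the replicate block, 2, 4 and 4 of the 9 genes and 7582, 7116 and 4031 rows were called, and Cxcl5 passed at day 14 against day 2 (adjusted p = 0.0315). The numbers were not taken as pairs: samples of the same number correlated at -0.0709 to 0.318 once day means were removed, and 4 of 9 correlated best with their own number.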
